A study of Danio rerio with 12 samples.

Results

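All 6 arrays labelled TCDD were compared with all 6 labelled control, with time as a block, to find genes that the dioxin TCDD shifted in the same direction at 0 hpa, 6 hpa and 7 dpa (hours and days post amputation). These are all 12 of the 12 arrays of the series. The fish were adult zebrafish of the AB strain, injected into the body cavity with TCDD at 70 ng/g or with the control solution 1 day before surgery. The labels give the treatment of the controls as none, while the protocol names a vehicle. The tissue was the apical end of the ventricle, where the cut was made and the tip grows back. The 6 groups were TCDD 0 hpa and control 0 hpa, from hearts that were not amputated, TCDD 6 hpa and control 6 hpa, and TCDD 7 dpa and control 7 dpa. Each group had 2 arrays, and each array carried RNA from a pool of 10 hearts, so that the errors describe pools and not single fish. In such bulk tissue, fewer cells of a type and less RNA per cell cannot be told apart.

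TCDD binds the aryl hydrocarbon receptor, AHR, which waits in the cytoplasm in a complex with the chaperone Hsp90. After binding, the receptor enters the nucleus, pairs with ARNT and raises transcription of genes such as those of the CYP1 family of cytochrome P450 enzymes. In zebrafish, ahr2 encodes the receptor that carries most responses to TCDD, the developing heart is a well-known target, and TCDD impairs regeneration of fins.

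One array, TCDD 6 hpa replicate 1, differed from the other 11 and is called the odd array here. Of its probe sets (groups of probes for a transcript), 202 exceeded their values on every other array by over 1 log2 unit, and 461 lay under them by over 1 log2 unit. Its actin 3′ minus 5′ log2 difference, which grows as RNA breaks down, was 3.35, against −0.08 to 2.07 on the others. Over all arrays this difference averaged 1.496 on TCDD and 1.04 on control arrays (exact permutation test within times, two-sided p = 0.426). With this difference as a covariate, the probe sets called over all times were again those of cyp1a and tiparp. The median log2 intensity of an array was 3.26 to 3.53, and a level near it is not shown to be above background, since the files carry no detection calls. Heart muscle was plainly present (myl7 averaged 12.73 and tnnt2a 12.07 log2 units over all arrays), as were red cells (hbaa1 12.93) and endothelium (kdrl 7.04). The epicardial gene tbx18 averaged 3.11, near the array medians, and tcf21 had no named probe set. The skin genes krt5 and tp63 averaged 5.31 and 3.41.

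Over all times 2 genes passed the test. They were cyp1a, the P450 gene used as the standard mark of AHR activation, and tiparp, a TCDD-inducible gene whose enzyme attaches ADP-ribose to proteins and restrains the receptor. Both rose, and both had the same sign at each time. The probe sets called were 2 of 15502, or 0.0129% (limma with Benjamini-Hochberg adjustment over all probe sets, adjusted p below 0.05). No probe set fell by this test. Without adjustment, 424 probe sets (2.74%) had a p below 0.05, of which 172 were higher and 252 lower with TCDD, and 385 (2.48%) also had the same sign at all 3 times. All 216 ways of exchanging labels within times give an exact two-sided p of at least 0.00926, the value reached by both genes. It is also that of each of the 78 probe sets whose groups did not overlap at any time, whatever the size of the difference, and so does not set these genes apart.

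cyp1a had log2 intensities of 12.03 and 11.75 in TCDD hearts at 0 hpa, against 3.48 and 3.64 in controls. At 6 hpa it stood at 9.38 and 11.098 with TCDD, against 2.71 and 3.07 in controls. At 7 dpa it stood at 12.18 and 11.48 with TCDD, against 2.96 and 2.96 in controls. Every TCDD array lay far above every control array, and the lowest TCDD value was that of 6 hpa replicate 1. Over all times the difference was 8.18 ± 0.31 log2 units (limma's standard error, as throughout, adjusted p = 6.23e-07), a ratio of 291. Because the controls lay near the medians of their arrays, and so are not shown to be above background, that ratio is at best a lower bound. By time the difference was 8.33 at 0 hpa, 7.35 at 6 hpa and 8.87 at 7 dpa.

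tiparp was well expressed in both groups. It had 8.12 and 7.81 log2 units with TCDD at 0 hpa, against 6.00 and 5.96 in controls, and 7.66 and 9.12 with TCDD at 6 hpa, against 6.69 and 6.17 in controls. At 7 dpa it had 7.67 and 8.00 with TCDD, against 5.95 and 5.30 in controls. All 6 TCDD arrays again lay above all 6 control arrays, the closest being the lowest TCDD value of 7.66 and the highest control value of 6.69, both at 6 hpa. In order of time the difference was 1.99, 1.96 and 2.21, each ± 0.43, and at 6 hpa it was 2.69 without the odd array. Over all times it was 2.05 ± 0.23 (adjusted p = 0.0184), a ratio of 4.15. This call rested on all 8 arrays at 0 hpa and 7 dpa: without any 1 of them the difference was 1.95 to 2.11 and the adjusted p 0.0572 to 0.116. Without the odd array the difference was 2.25 (adjusted p = 0.000731).

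**Figure D1:**
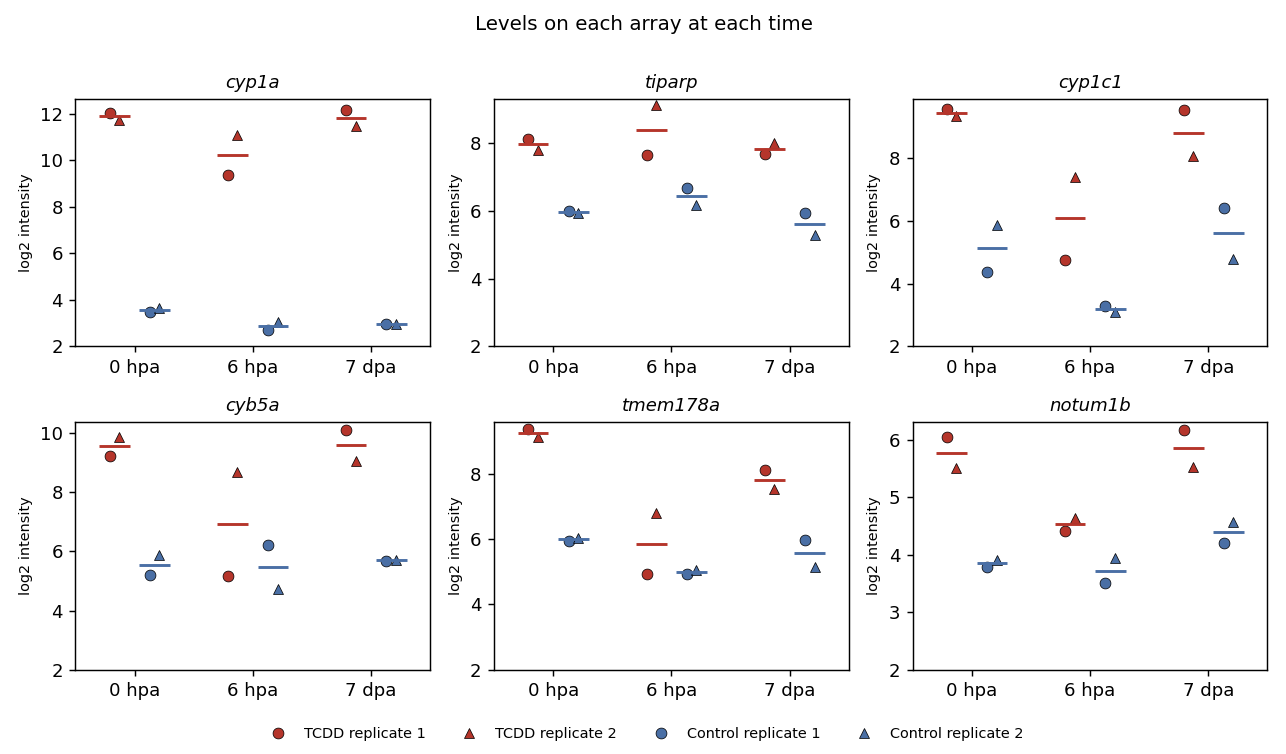
Log2 intensity (vertical axis) of 6 genes on each array at 0 hpa, 6 hpa and 7 dpa. TCDD arrays are red and control arrays blue, circles are replicate 1 and triangles replicate 2, and bars are means of 2 arrays. The TCDD points of cyp1a and tiparp lie above all control points, while at 6 hpa the circle of TCDD replicate 1 lies at or below a control point for cyb5a (5.16) and tmem178a (4.92).

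Without TCDD 6 hpa replicate 1, the same model called 15 probe sets (0.0968%), 14 of them higher (0.0903%) and 1 lower with TCDD, and both genes above were among them. At an unadjusted p below 0.05 there were 648 (4.18%). Of the 15, 10 have 1 gene symbol and 5 have none. Without the odd array all 15 had the same sign at the 3 times. The sign of every probe set at 6 hpa then rested on 1 TCDD array. The 15 were chosen by the fit without the odd array, so that it stands apart in them is partly built in. Leaving out all 4 arrays at 6 hpa called 12 probe sets (0.0774%). Without the odd array, 4387 of all probe sets (28.3%) had the same sign at the 3 times, against 3910 (25.2%) with it.

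Among these 10 genes, 2 more belong to phase 1 of detoxification. cyp1c1, a zebrafish CYP1 gene, had 9.55 and 9.31 log2 units with TCDD at 0 hpa, against 4.38 and 5.87 in controls. It had 4.76 and 7.40 with TCDD at 6 hpa, against 3.27 and 3.08 in controls, and 9.52 and 8.07 with TCDD at 7 dpa, against 6.41 and 4.78 in controls. At each time both TCDD arrays lay above both controls, although the TCDD value of 4.76 at 6 hpa was lower than 3 control values at other times. The difference was 3.47 ± 0.51 on all arrays (adjusted p = 0.102), and 3.87 ± 0.40 without the odd array (adjusted p = 0.0064). The other named probe sets for cyp1c1 differed by 0.62 and 0.13.

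cyb5a encodes cytochrome b5, which passes electrons to P450 enzymes. It had 9.24 and 9.85 log2 units with TCDD at 0 hpa, against 5.19 and 5.89 in controls, and 10.11 and 9.07 with TCDD at 7 dpa, against 5.68 and 5.72 in controls. At 6 hpa it had 5.16 and 8.68 with TCDD, against 6.23 and 4.71 in controls. The groups stood apart at 0 hpa and 7 dpa and overlapped at 6 hpa, where the odd array lay between the 2 controls. The difference was 3.11 ± 0.62 on all arrays (adjusted p = 0.51) and 3.76 ± 0.30 without the odd array (adjusted p = 0.00104).

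tmem178a, a gene for a membrane protein, followed the same order. It had 9.37 and 9.13 log2 units with TCDD at 0 hpa, against 5.96 and 6.02 in controls, then 4.92 and 6.80 at 6 hpa, against 4.94 and 5.07, and 8.11 and 7.53 at 7 dpa, against 5.98 and 5.15. Only the odd array failed to exceed the controls of its time. The difference was 2.12 ± 0.41 on all arrays and 2.52 ± 0.25 without the odd array (adjusted p = 0.00439).

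Genes of extracellular signalling were also among the 10. notum1b, whose product removes a lipid from Wnt proteins and so inactivates them, had 6.04 and 5.51 log2 units with TCDD at 0 hpa, against 3.79 and 3.91 in controls, 4.42 and 4.63 at 6 hpa, against 3.51 and 3.94, and 6.17 and 5.53 at 7 dpa, against 4.21 and 4.57. The groups did not overlap at any time, and the gap was narrowest at 6 hpa. The difference was 1.396 ± 0.20 on all arrays (adjusted p = 0.102) and 1.497 ± 0.20 without the odd array (adjusted p = 0.03). edn1, the gene of the vasoconstrictor endothelin 1, differed by 1.63 ± 0.36 on all arrays and 1.93 ± 0.27 without the odd array (adjusted p = 0.0373). Its TCDD arrays read 7.07, 6.39, 5.12, 6.55, 6.38 and 6.79 in order of time, against 4.42, 3.73, 5.62, 4.72, 4.92 and 5.13 in controls. Apart from the odd array at 5.12, each TCDD value exceeded every control value.

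cxxc5a, which encodes a CXXC zinc finger protein, read 7.17, 7.17, 4.58, 5.32, 6.18 and 5.88 with TCDD in order of time, against 4.15, 4.42, 4.60, 4.39, 4.01 and 4.07 in controls. Here too the odd array, at 4.58, was the single TCDD value within the range of the controls. The difference was 1.77 ± 0.33 on all arrays and 2.03 ± 0.27 without the odd array (adjusted p = 0.03). The sulfotransferase gene sult6b1 differed by 1.17 ± 0.28 and, without the odd array, by 1.41 ± 0.20 (adjusted p = 0.0368). Its controls lay at 3.12 to 3.92, close to background, and its TCDD arrays at 3.33 to 5.68.

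The single gene below its controls among the 15, fgfr4, encodes a receptor of fibroblast growth factors. It read 4.63, 4.40, 5.06, 4.45, 4.50 and 4.58 with TCDD in order of time, against 5.03, 4.98, 4.95, 4.90, 5.18 and 5.20 in controls. All TCDD values but the odd array's 5.06 lay below all controls, within a narrow range. The difference was −0.43 ± 0.12 on all arrays and −0.54 ± 0.08 without the odd array (adjusted p = 0.0445).

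**Figure D2:**
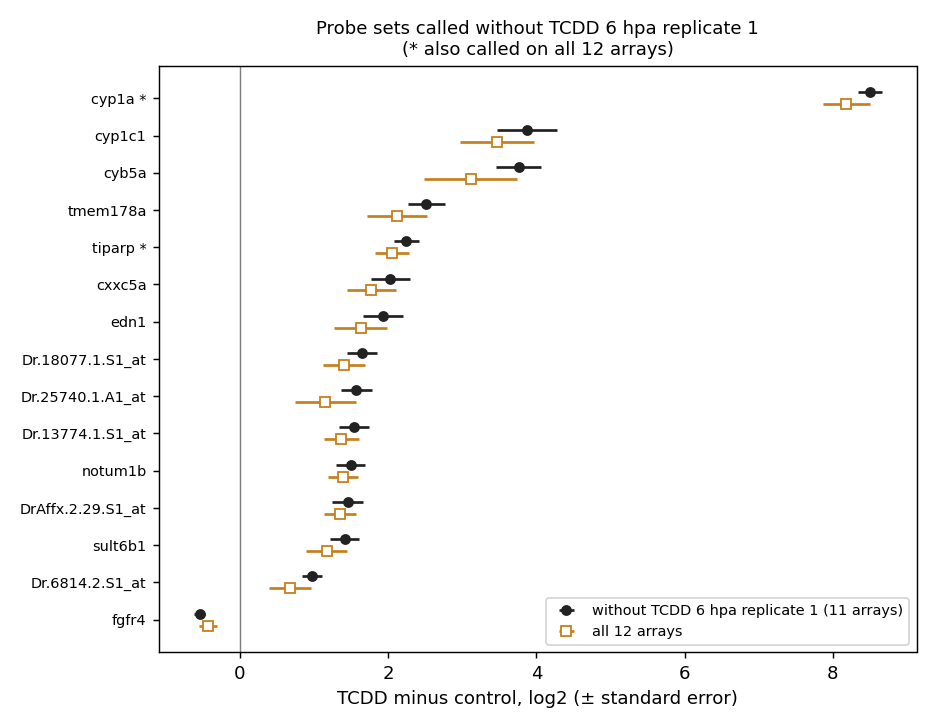
TCDD minus control difference in log2 units (horizontal axis, bars ± standard error) of the 15 probe sets called without TCDD 6 hpa replicate 1, on those 11 arrays (black circles) and on all 12 (open orange squares). An asterisk marks the 2 also called on all 12 arrays. The estimate without that array lies farther from 0 in each of the 15, as for cyb5a (3.76 against 3.11). The 15 were chosen by the fit without that array, so this difference is partly built in.

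Within a list of AHR pathway and xenobiotic metabolism genes, 20 were measured. Of these 2 rose and none fell on all arrays, as of all 8793 genes with a probe set. Without the odd array 5 of the list rose and none fell, against 9 that rose and 1 that fell of all genes. The list's median difference was 0.02, against 0.00 over all genes. 12 of the 20 (60%) had the same sign at all times, against 25.3% of all genes. At an unadjusted p below 0.05 the list had 7 genes higher and 2 lower with TCDD, together 45% of the list, against 2.91% of all genes. The list was chosen with earlier results of these data known, so these shares are a description.

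Among the receptors, ahr2 read 8.64, 8.27, 5.87, 7.65, 7.82 and 7.21 with TCDD in order of time, against 7.45, 7.21, 6.34, 5.96, 7.09 and 6.29 in controls. At 0 hpa and 7 dpa both TCDD arrays were above both controls, and at 6 hpa the odd array was below them. The difference of 0.85 ± 0.28 did not pass, nor did 1.11 ± 0.19 without the odd array (adjusted p = 0.132). The other receptor gene measured, ahr1a, lay at background and differed by 0.00 ± 0.10. The partner gene arnt2 differed by −0.05, and arnt had no named probe set.

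Among the targets, nqo1, a quinone reductase, differed by 1.03 ± 0.30 and did not pass, with values of 3.40 to 5.94 with TCDD against 2.66 to 4.95 in controls. The P450 gene cyp1d1, which differed by 0.03, and cyp3a65 lay among the members near 0, as did sox9b, a gene lowered by TCDD in zebrafish embryos (−0.01 ± 0.11 here, at background). The chaperone gene hsp90aa1.1, known in zebrafish chiefly for folding muscle myosin, read 5.25, 5.24, 4.54, 5.55, 5.96 and 5.73 with TCDD, against 7.26, 8.02, 5.39, 6.62, 6.86 and 6.34 in controls. Its groups overlapped only at 6 hpa, and the difference of −1.37 ± 0.33 did not pass.

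**Figure D3:**
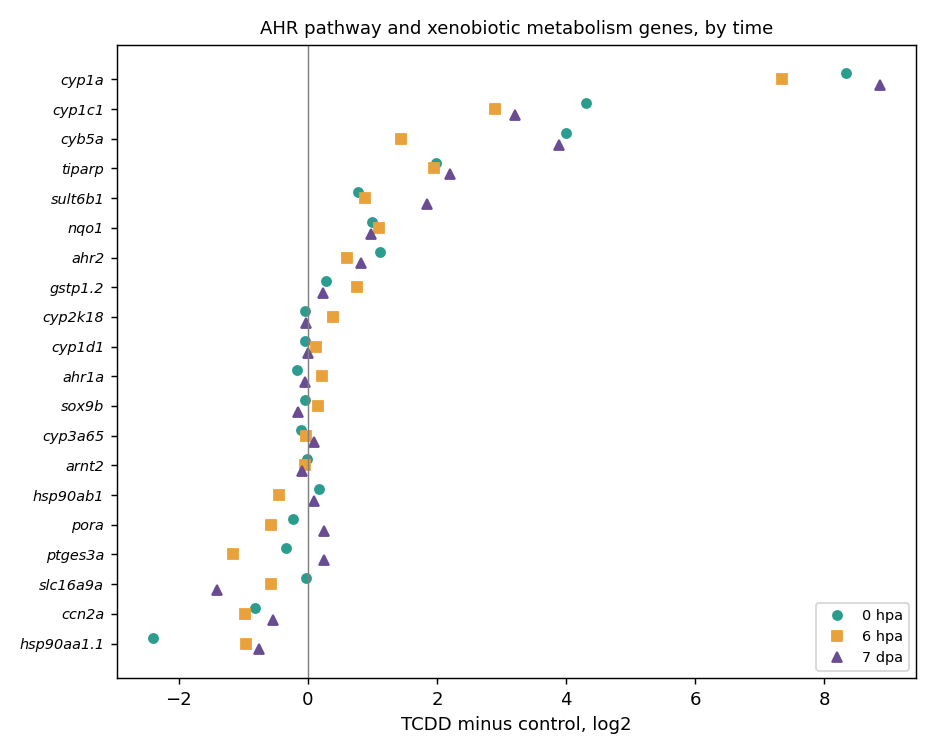
TCDD minus control difference in log2 units (horizontal axis) of the 20 measured AHR pathway and xenobiotic metabolism genes at 0 hpa (green circles), 6 hpa (orange squares) and 7 dpa (purple triangles), each the difference of means of 2 arrays. cyp1a lies at 7.35 to 8.87 and tiparp at 1.96 to 2.21, while ahr1a, sox9b, arnt2 and cyp1d1 lie close to 0 at each time.

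The 3 times share no arrays, so the genes that differed at 1 time can be read at another. Of the 100 probe sets with the smallest p at 0 hpa, 81 had the same sign at 7 dpa and 72 at 6 hpa, against 53.3% and 50.9% of all probe sets. Of the 100 with the smallest p at 6 hpa, 76 had the same sign at 0 hpa and 59 at 7 dpa, against 50.9% and 46.3% of all probe sets. Of the 100 with the smallest p at 7 dpa, 62 kept the sign at 0 hpa and 56 at 6 hpa, against 53.3% and 46.3%. The chosen sets were not balanced in direction, so the shares of all probe sets are only a rough guide. Of the 100 at 7 dpa, 61 were higher with TCDD. At 6 hpa 32 of these 61 were higher, against 55.1% of all probe sets, and 24 of the 39 lower ones were lower. Of the 100 at 6 hpa, 79 were lower, 45 of them also at 7 dpa, and 21 higher, 14 of them also at 7 dpa. Probe sets are not independent of each other, so these shares are a description.

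A stricter count asks for both TCDD arrays above, or both below, both controls at all 3 times. It held for 37 probe sets above (0.239% of 15502) and 41 below (0.264%), together 78 (0.503%). Of those above, 22 had a mean under 4 log2 units, close to background, against 11 of those below. In 14 of the 37 the difference exceeded 0.5, and in 27 of the 41 it was under −0.5. Exchanging labels within times gives such a separation in a fraction of 0.00926 of arrangements, which is larger than the 0.503% seen. Belonging to this count therefore does not by itself mark a shift with TCDD. Apart from cyp1a and tiparp, no gene of this count passed the test on all arrays, and most of those named in what follows were chosen after their values were seen.

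Below the controls, cdo1, which encodes cysteine dioxygenase and starts the breakdown of cysteine, had the smallest p of all lower probe sets. It had 6.94 and 6.34 log2 units with TCDD at 0 hpa, against 8.78 and 8.99 in controls, and 5.67 and 5.51 with TCDD at 6 hpa, against 7.10 and 7.71 in controls. At 7 dpa it had 6.35 and 6.23 with TCDD, against 7.09 and 6.94 in controls. The TCDD arrays were the lower pair each time, and the gap was widest at 0 hpa and narrowest at 7 dpa (−2.24, −1.81 and −0.72). The difference over all times was −1.59 ± 0.23 (adjusted p = 0.102, and 0.0926 without the odd array). In a model with 6 group means, which called 8 probe sets (0.0516%), the same difference had an adjusted p of 0.00802. Of 24 alternatives run for cdo1, 2 called it, neither of them a fit with 1 array left out. Of 38 antioxidant, glutathione and sulfur metabolism genes none was called, and at an unadjusted p below 0.05 there were 1 higher and 2 lower with TCDD (7.89%, against 2.91% of all genes).

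Genes of the extracellular matrix and of epicardial cells and fibroblasts lay mostly below the controls, and none was called. Of 37 matrix genes, 10 were lower and 2 higher at an unadjusted p below 0.05 (32.4%), and of 42 epicardial and fibroblast markers, 14 were lower and 1 higher (35.7%). Over all 8793 genes 154 were lower and 102 higher (2.91%). Their median differences were −0.18 and −0.34, against 0.00 over all genes, and −0.22 and −0.20 without the odd array. By time the matrix median was −0.21 at 0 hpa, 0.01 at 6 hpa and −0.29 at 7 dpa, so it was not below 0 at 6 hpa, and the epicardial and fibroblast median was −0.15, −0.22 and −0.16. The lists share 6 genes and hold 73 together, of which 27 were lower and 7 higher at each of the 3 times, against 1095 lower and 1131 higher of all 8793 genes. Without overlap at any time 7 were lower and none higher, against 41 lower (0.264%) and 37 higher (0.239%) of all 15502 probe sets. Among genes with 1 sign at all times, an excess of lower ones was not particular to these lists. It was also seen in 92 mitochondrial genes (30 lower, 0 higher), 71 ribosomal protein genes (27 and 1) and 43 heart muscle genes (15 and 1). In these 3 lists the shares with an unadjusted p below 0.05 were 0%, 0% and 6.98%. The mitochondrial median was −0.05 at 0 hpa, −0.61 at 6 hpa and 0.01 at 7 dpa, and 0.02 without the odd array. Growth factor and Wnt signalling genes leaned the other way (14 lower and 19 higher of 107). These lists were chosen with earlier results of these data known, so their shares are a description. The summed intensity of the matrix list was 834 to 6493 on TCDD arrays and 1195 to 8440 on control arrays, ranges that overlap because the level changes with time in both groups.

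vim encodes vimentin, the intermediate filament of mesenchymal cells. It read 4.35, 4.93, 4.11, 4.19, 4.37 and 4.83 log2 units with TCDD in order of time, against 6.48, 5.29, 4.45, 4.90, 6.76 and 6.67 in controls. The TCDD pair lay under the control pair each time, by most at 7 dpa, and the difference was −1.29 ± 0.28. acta2, the smooth muscle actin of myofibroblasts, read 6.07, 5.94, 5.23, 5.25, 7.09 and 6.82 with TCDD, against 9.40, 6.48, 6.08, 5.75, 9.31 and 8.32 in controls. Its control pair at 0 hpa was far apart, and the difference was −1.49 ± 0.43. The chemokine gene cxcl12b read 3.82, 4.16, 3.16, 3.22, 4.83 and 3.88 with TCDD, against 6.16, 4.73, 3.47, 3.80, 6.28 and 6.07 in controls, a difference of −1.24 ± 0.29, with both groups near background at 6 hpa.

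The levels of collagen genes and their partners differed between times as well as between groups. sparc, which encodes a collagen-binding glycoprotein, had 6.28 and 6.30 log2 units with TCDD at 0 hpa, against 7.23 and 6.65 in controls, 3.78 and 4.23 at 6 hpa, against 5.49 and 4.52, and 8.71 and 9.09 at 7 dpa, against 9.11 and 9.31. The TCDD pair was the lower one at each time, although at 7 dpa the nearest arrays stood at 9.09 with TCDD and 9.11 in controls, and the difference was −0.65 ± 0.19. The collagen I gene col1a2 differed by −0.49 ± 0.17, and its second probe set by −0.41 ± 0.16. Others of the same sign at each time were ccn2a (−0.78 ± 0.21), dcn (−0.32 ± 0.11) and thbs3a (−0.65 ± 0.14). The collagen chaperone gene serpinh1b (0.36 ± 0.16) and the matrix glycoprotein gene thbs1b (0.88 ± 0.30) had the opposite sign.

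**Figure D4:**
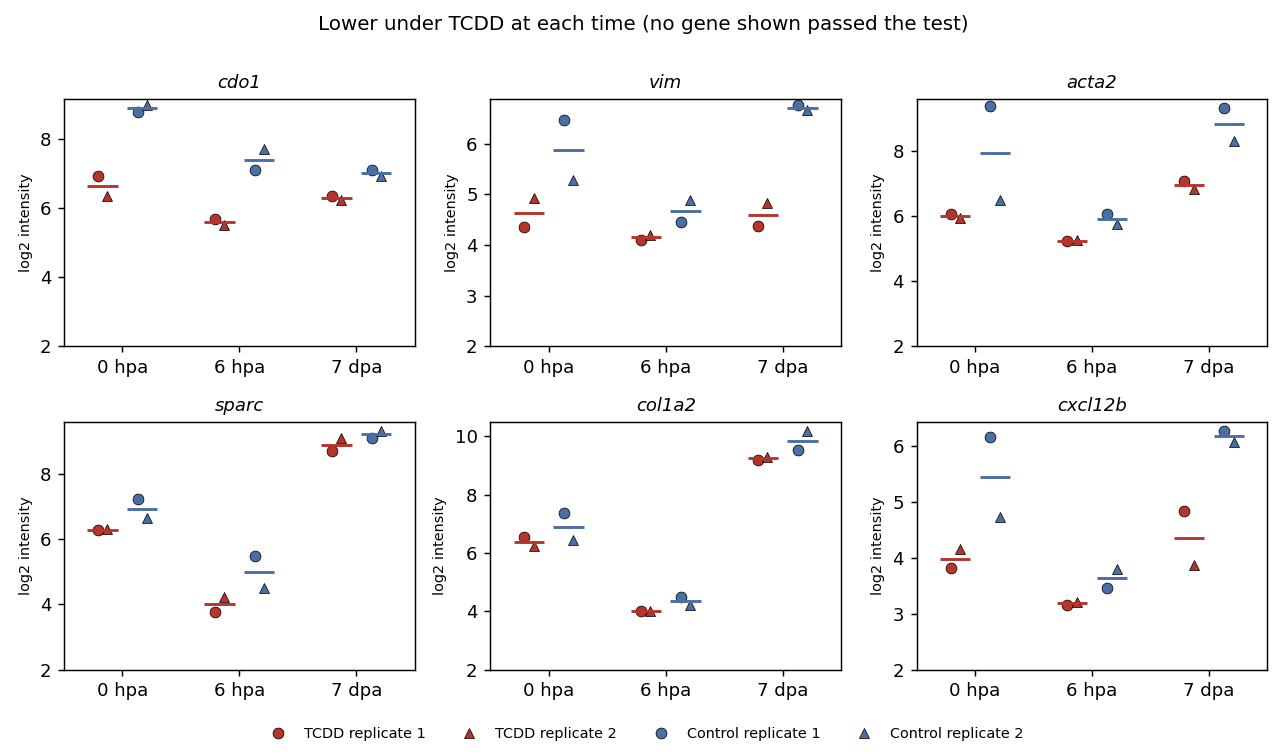
Log2 intensity (vertical axis) of 6 genes whose mean was lower with TCDD at each time, drawn by time with TCDD arrays in red and control arrays in blue (circles replicate 1, triangles replicate 2, bars means of 2 arrays). None passed the test on all arrays; cdo1 shows the widest gap between groups at 0 hpa (−2.24), and sparc and col1a2 differ more between times than between groups.

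Outside those lists, nt5c2l1, a 5′-nucleotidase gene kept on the list of red cell markers, read 9.62, 9.30, 11.95, 12.03, 8.78 and 9.13 log2 units with TCDD in order of time, against 8.16, 8.12, 11.34, 10.62, 7.61 and 5.94 in controls. The TCDD pair was the higher one at each time, and the difference was 1.51 ± 0.29. The rest of that list did not follow it, since 12 of 32 genes were lower at every time and 2 were higher, with a median of −0.11. mid1ip1l, a regulator of fatty acid synthesis in mammals, differed by 0.78 ± 0.18, cav3, a caveolin of muscle, by 0.53 ± 0.18, and the Wnt feedback gene axin2 by 0.43 ± 0.14. On the lower side were mmrn2a, of the vessel wall (−0.99 ± 0.19), and the keratin gene krt15 (−1.18 ± 0.26). krt15 is on the list of epidermis markers, of which 34 of 44 lay above 0. The muscle transcription factor gene mef2aa differed by −0.46 ± 0.16 and the water channel gene aqp8a.1 by −0.68 ± 0.15.

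All 6 TCDD arrays lay above all 6 controls in 5 probe sets (0.0323%), and below them in 3 (0.0194%). The 5 are those of cyp1a and tiparp, an unnamed one, one for pofut1 at background (0.31 ± 0.10), and one annotated as mpx, the neutrophil enzyme myeloperoxidase. The mpx probe set had 3.77 to 8.11 log2 units with TCDD, against 2.42 to 2.92 in controls. It bears the same identifier stem as the cyp1a probe set, with which it correlated at r = 0.83 over the 12 arrays. Both probe sets separate all TCDD from all control arrays, so a high r is largely built in and does not show a shared target. Among the TCDD arrays both ranked the replicates alike at 0 hpa and 6 hpa, and in opposite order at 7 dpa. The other 3 probe sets annotated as mpx, which bear the same stem, differed by 0.00, 0.03 and 0.10. Because these did not follow it, the value of this probe set was not taken as one of mpx. What it measures was not tested. Of the 3 below, aqp8a.1 is named.

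A TCDD effect that differed between times was called for 2 probe sets (0.0129%, interaction F test in limma, Benjamini-Hochberg adjusted), both outside the genes shifted at every time, and 339 (2.19%) had an unadjusted p below 0.05. ca2, a carbonic anhydrase gene, had 9.19 and 8.65 log2 units with TCDD at 7 dpa, against 4.65 and 4.91 in controls. At 0 and 6 hpa it lay at background in both groups, from 2.59 to 3.12 with TCDD and from 2.64 to 3.24 in controls (adjusted p = 0.00485). dnase1l4.1, a DNase gene, had 5.75 and 5.67 with TCDD at 6 hpa, against 3.07 and 2.89 in controls. At the other times it lay at 2.72 to 2.94 with TCDD, against 2.75 to 3.77 in controls (adjusted p = 0.00809). When each array was left out in turn, ca2 was called in 12 of 12 fits, and dnase1l4.1 in 7, with an adjusted p of up to 0.116. With the replicate number as a block within time, limma's interaction test called neither gene (adjusted p = 0.141 for ca2 and 0.115 for dnase1l4.1). After quantile normalization it did not call dnase1l4.1 (adjusted p = 0.148). cyp1a and tiparp were not called by the interaction test, which does not show that their differences were equal at the 3 times.

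**Figure D5:**
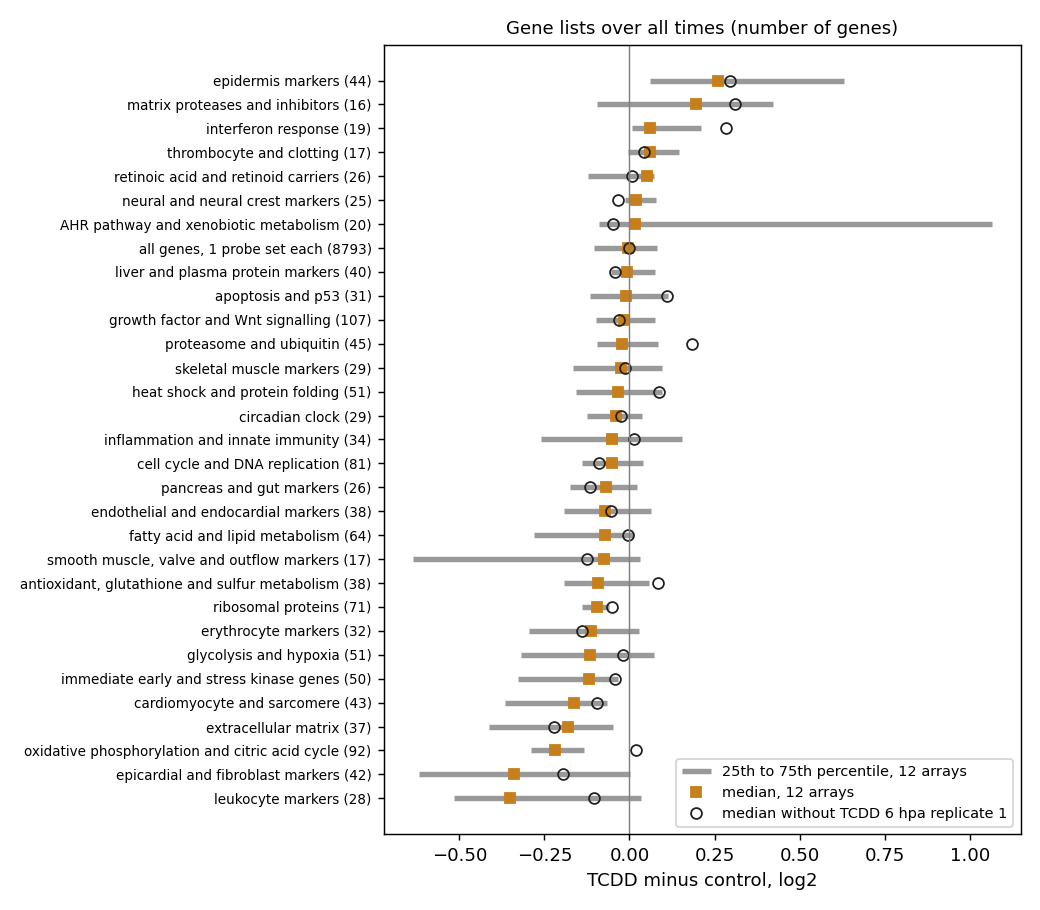
Median TCDD minus control difference in log2 units (horizontal axis) of 30 gene lists and of all 8793 genes, 1 probe set per gene, on all 12 arrays (orange squares, with grey bars over the interquartile range of the genes) and without TCDD 6 hpa replicate 1 (open circles). Numbers in brackets count the measured genes; epicardial and fibroblast markers lie at −0.34 and −0.20, and oxidative phosphorylation moves to 0.02 without that array.

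Of 30 gene lists, that of the AHR pathway alone had called members on all arrays. These were cyp1a and tiparp, the only genes called of all 8793, so no list without them could have a called member. Some medians moved without the odd array or differed between times. For 92 mitochondrial genes (oxidative phosphorylation and the citric acid cycle) the median was −0.22 over all times and −0.61 at 6 hpa, but 0.02 without the odd array. The 43 heart muscle genes had a median of −0.16, and −0.10 without the odd array. The 44 epidermis markers had a median of 0.26, made up of 1.21 at 7 dpa, −0.04 at 6 hpa and −0.06 at 0 hpa. The 28 leukocyte markers, which include the probe set annotated as mpx, had a median of −0.35, and −0.10 without the odd array. By time their median was 0.27 at 0 hpa, −0.52 at 6 hpa and −0.83 at 7 dpa. The part of the odd array's RNA quality and of skin cells in these medians was not tested.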

How the data were processed

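The values are intensities that the authors deposited, on a linear scale, for each probe set on each array. Per the submitters' processing notes they come from RMA, whose version is not given in the sources used here. Further deposited tables of the authors' own comparisons were not used here. After removal of 115 Affymetrix controls from 15617 probe sets, log2 was taken of the remaining 15502 with no filter. Platform annotation, updated through a RefSeq gene table, gave 1 symbol to 10795 probe sets, several to 135 and none to 4572. limma 3.58.1 in R 4.3.3 fitted time as a block plus treatment (8 residual and 2.79 prior degrees of freedom), and 6 group means for values by time and for the interaction. P-values were adjusted by Benjamini-Hochberg over all 15502. The median standard error was 0.136 log2 units, limited by the number of arrays. P-values from the 6 group means measure the spread between pools of hearts. Those from time plus treatment also take in differences of the TCDD effect between times, since that fit has no interaction term. Groups came from sample titles.

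Lists used 1 probe set per gene, that with the highest mean. Genes named by rule were up to 12 rises and 12 falls called with 1 sign at all times, up to 3 called members per list or else the member with the smallest p, 14 fixed genes, and the 4 smallest interaction p-values; other names were chosen after their values were seen. The members and lists were chosen with earlier results of these data known. The model was tested on simulated data with independent errors of the same spread on every array. Such data do not test how it handles an odd array or deviations shared by arrays of the same replicate number. Alternatives were leaving out each array, replicate blocks, other normalization, moderation, array weights, filters, a covariate for RNA quality and a pseudocount.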

Additional observations from a re-analysis of the deposited data

Results flagged for a closer look

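Among 53 probe sets checked, 5 had 1 TCDD array set apart from the other 5 when each was read against the mean of its time's controls. Chance sets apart about 1 in 20 where the values are independent and of 1 distribution. Here the TCDD arrays of a time shared a control mean, and the TCDD effect may differ between times. That share is therefore only a rough guide. In all 5 of the probe sets with an array set apart, that array was TCDD 6 hpa replicate 1. In any case the share of 1 in 20 does not apply to cyb5a, fgfr4 and the probe set with no gene name. These were checked because they were called once that array was left out. That array's difference was −0.31 log2 units for cyb5a, where the other TCDD arrays lay at 3.21 to 4.40. For the probe set with no gene name it was −0.84, where the others lay at 0.84 to 1.37. For fgfr4 it was 0.14, where the others lay at −0.69 to −0.38. For the ATP synthase gene atp5mc1 it was −1.22, where the others lay at −0.49 to −0.08, and for the chymotrypsinogen gene ctrb.1 it was −2.24, where the others lay at −0.83 to −0.16.

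The TCDD effect differed between times for ca2 (adjusted p = 0.00485) and dnase1l4.1 (adjusted p = 0.00809), by limma's test of the interaction. ca2 differed by 4.14 log2 units at 7 dpa, in both arrays, against −0.05 at 0 hpa and −0.16 at 6 hpa. dnase1l4.1 differed by 2.73 at 6 hpa, in both arrays, against −0.66 at 0 hpa and 0.01 at 7 dpa.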

How the results depend on the processing

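cyp1a passed under every alternative run for it, and tiparp in 12 of 24. The count of probe sets called over all times, 2 on all arrays, was 1 to 15 when each array was left out in turn (15 without TCDD 6 hpa replicate 1, 6 without control 6 hpa replicate 2, and 1 without any 1 of the 8 arrays at 0 hpa or 7 dpa), 1 with array medians centred or with log2(intensity + 16), 5 after quantile normalization, 6 with trend and robust moderation, 13 with array weights, 8 with 6 group means (7 of them with 1 sign at all times) and 12 without the 4 arrays at 6 hpa, an alternative chosen after seeing the data. Elsewhere all probe sets counted had 1 sign at all times. The interaction count, 2, was 1 to 77 when each array was left out (77 without TCDD 6 hpa replicate 2, 6 without TCDD 7 dpa replicate 2, 7 and 21 without control 7 dpa replicates 1 and 2, and 1 without TCDD 6 hpa replicate 1, either TCDD 0 hpa array or either control 6 hpa array), 1 after quantile normalization, 6 with trend and robust moderation, 3 with the actin covariate and 3 with log2(intensity + 16).

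Arrays of the same replicate number deviated together at 0 hpa and 7 dpa but not at 6 hpa (correlations of deviations 0.48, −0.14 and 0.56), and the numbers were not taken as pairs. Replicate 1 had the higher actin 3′ minus 5′ difference in all 6 groups. With a replicate block beside time 1 probe set was called, and with the block within time 1, with 0 for limma's interaction test (477 at an unadjusted p below 0.05), where ca2 had an adjusted p of 0.141 and dnase1l4.1 of 0.115.

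Signs near 0 turned: ahr1a was −0.031 after quantile normalization, −0.0061 with centred medians, −0.060 with array weights, −0.027 with the actin covariate, −0.11 without the 6 hpa arrays and −0.076 to 0.045 when each array was left out, and sox9b was 0.011 with the actin covariate and −0.067 to 0.055 when each array was left out. Without the 6 hpa arrays dnase1l4.1 was −0.33 and aldh1a2 0.22. The causes were not tested. Medians of the matrix and the epicardial and fibroblast lists stayed below 0 in all 6 settings run (−0.31 to −0.16 and −0.35 to −0.20). So did those of several other lists, among them heart muscle, red cell markers and ribosomal proteins. Medians of epidermis markers and of matrix proteases and inhibitors stayed above 0.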
